A study of Drosophila melanogaster with 73 samples.

Results

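The genes described here are the 126 transcripts of the fly abdominal fat body that peaked by day at 25°C. They were chosen by a harmonic regression of log2(TPM + 1) with a 24 h period over the 26 libraries of days 4-5 at 25°C, where TPM is a transcript abundance per length with a fixed total in each library. Kept were genes with a median above 5 TPM, an F-test p below 0.002 and a fitted peak from ZT00 up to ZT12 (ZT, zeitgeber time, hours after lights on). Of 7148 eligible genes among 23932 rows, 338 passed the p threshold at any time, 198 of them with a peak from ZT12 on. A further 14 daytime genes, among them Clk, cry, Zw and members of the Cyp and Ugt families, were left out by name, and 126 remained. Before that step 1.96% of the eligible genes passed, a share that the rule fixed.

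The flies were mated females of the isogenic w1118 strain Iso31, held under 12 h light and 12 h dark. After 3 days of entrainment at 25°C, a set of about 7 days of age was transferred to 18°C and the controls stayed at 25°C. Each library held fat bodies pooled from about 10 flies. Days 4-5 after the shift gave 26 libraries at 25°C and 24 at 18°C. Days 1-2 gave 18 libraries at 18°C and 5 at 25°C. Replicate 1 was taken every 2 h, except at 25°C on days 1-2, where it was taken every 6 h. At 18°C it lacked ZT18 of day 1. Replicate 2 was taken every 6 h, on days 4-5 only, and lacked ZT00 and ZT18 of day 5 at 18°C. The labels do not say whether the replicates were separate cultures, so that p-values measure only the spread between these libraries.

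The insect fat body joins the tasks of liver and adipose tissue. It stores glycogen and triglyceride, makes new lipid from sugar, breaks down amino acids and secretes proteins into the hemolymph. Its cells carry their own circadian clock, which responds to light and to feeding time, and many of its metabolic transcripts are known to cycle around the daily meal. Glucose 6-phosphate enters either glycolysis, which leads to pyruvate and ATP, or the pentose phosphate pathway, which gives the NADPH that fatty acid synthesis spends.

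The tissue label held for the fat body markers, of which 9 of 11 at 25°C and 10 of 11 at 18°C had a median above 5 TPM on days 4-5, with Npc2d at 0. Muscle markers were also present, 8 of 9 above 5 TPM at both temperatures, with a summed level of 1850 to 4563 TPM at 25°C and 1370 to 4321 TPM at 18°C, as were 3 of 3 measured oenocyte markers. Ovary germline markers summed to 17.7 to 210 TPM at 25°C and 18.5 to 781 TPM at 18°C, and eggshell markers to 0.140 to 7044 TPM and 0.760 to 12740 TPM. Gut markers summed to 18.0 to 12789 TPM at 25°C and 39.1 to 7870 TPM at 18°C. In bulk tissue, fewer cells of a type and less RNA per cell cannot be told apart.

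A pair of 18°C libraries of days 4-5 stood apart, with a median correlation to their group under 0.92. These were replicate 1 at ZT20 of day 4, with a germline marker score of 5.60 against a group mean of 2.93 (log2 scale), and replicate 2 at ZT06 of day 5, with an eggshell score of 7.21 against a group mean of 2.74. The ZT20 library held the lowest 18°C value of 24 of the 126 genes, and the ZT06 library held the highest value of 24. The counts of 18°C rhythms are therefore given with and without them, and so is each gene value printed that passed a threshold only with them. Leaving them out does not remove all libraries with high germline scores. Those kept include replicate 1 of day 5 at ZT00 (5.52), ZT02 (4.54) and ZT18 (5.44). Replicate 2 of day 4 at ZT12 (4.63) was kept too.

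At 25°C the values that chose the genes were as follows, and none of them is tested. The fitted peak lay between ZT00 and ZT06 in 67 genes, called morning genes here, and between ZT06 and ZT12 in 59, called afternoon genes. The amplitude, the distance from the fitted mean to the peak in log2 units, ran from 0.12 to 1.25 with a median of 0.28, a median peak-to-trough ratio of 1.47. It reached 0.5 in 19 genes and 1 in 3 genes (CG17127, geko and GstZ2). Just inside the p threshold were PK1-R (0.00195), mlt (0.00199) and Pep (0.001996), and just outside were COX5B (0.00219), sds22 (0.00219) and dj-1beta (0.00225).

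The word daytime describes the afternoon genes more closely than the morning genes. The highest 25°C library lay between ZT00 and ZT12 in 56 of 59 afternoon genes, whereas 13 of 67 morning genes had theirs at ZT20 or ZT22, in the dark hours before lights on. The fitted peak had a median standard error of 0.802 h, and in 13 morning and 2 afternoon genes it lay within 1 standard error of ZT00 or ZT12. The mean of the 10 libraries from ZT02 to ZT10 exceeded that of the 10 libraries from ZT14 to ZT22 in 123 of the 126 genes.

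**Figure D1:**
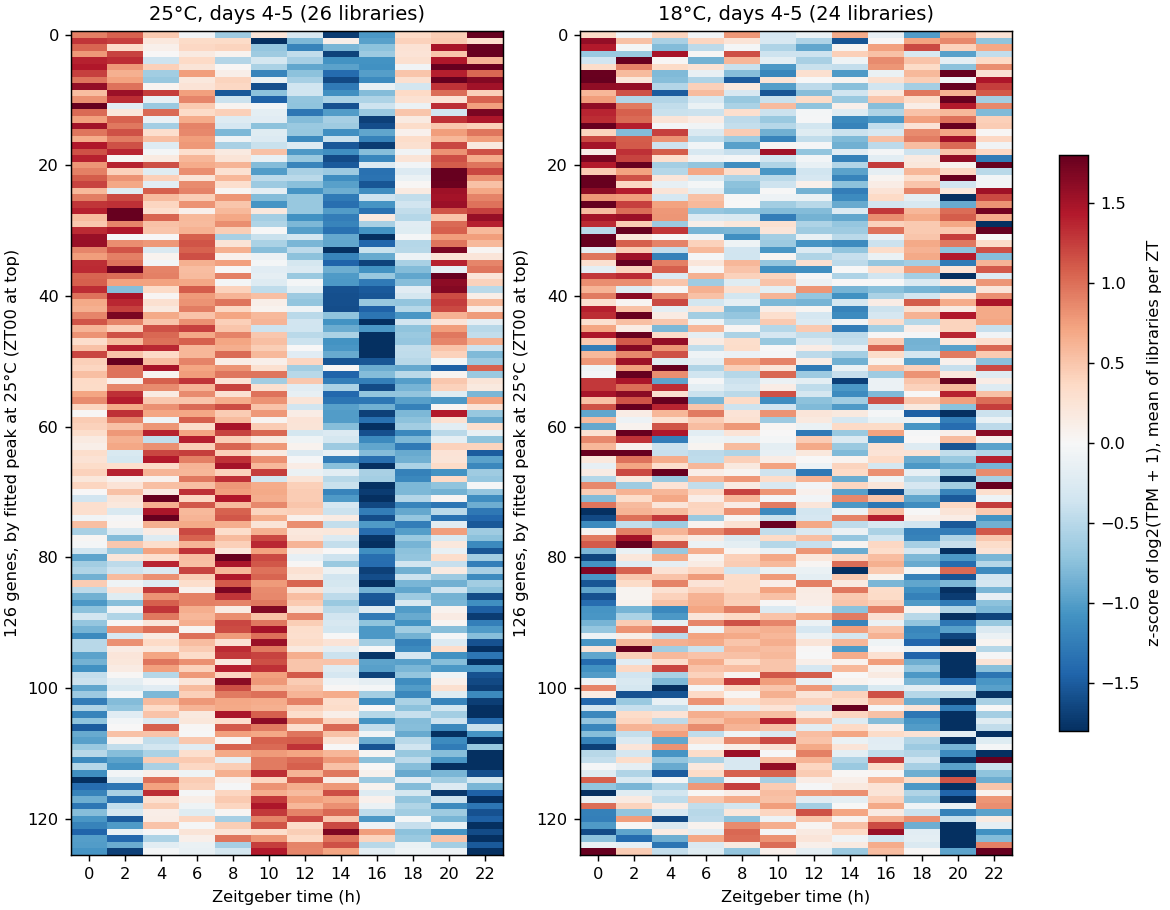
Each row is 1 of the 126 genes, ordered by fitted peak at 25°C, and each column is a zeitgeber time (h); colour is the z-score of log2(TPM + 1) within the gene and temperature, averaged over the libraries of that ZT. The 25°C panel shows the pattern that chose the genes, and the ZT20 column at 18°C holds the library of day 4 that stood apart from its group.

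The genes were abundant ones. Their median level at 25°C ran from 5.21 TPM to 3687 TPM (Acbp2), with a middle value of 64.0 TPM beside 25.9 TPM over all eligible genes, and the middle value was 38.7 TPM for morning and 114 TPM for afternoon genes. Together they took 21544 to 29994 TPM in the 25°C libraries of days 4-5 and 21406 to 32864 TPM in the 18°C libraries. All but asRNA:CR44512 are annotated as protein coding. Of the 126 genes, 42 (33.3%) lie on chromosome arm 3R, which holds 24.8% of eligible genes, and 0 on chromosome 4.

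Few of the genes are close to each other on the chromosome. There were 8 neighbouring pairs within 10000 bases. SelR (3R, 10863355-10868642) and Fdh (3R, 10870906-10872381) lie on the same strand 2263 bases apart and had fitted 25°C peaks at ZT0.203 and ZT8.09. ATPCL (2R, 15993531-16001290) and Ufc1 (2R, 16006893-16007667) peaked at ZT9.61 and ZT0.0665. The closest in time were Ctl1 and CG1316 on 3L, at ZT3.22 and ZT4.27. The libraries did not keep strand, and 43 of the genes (34.1%, beside 37.1% of eligible genes) overlap exons of an antisense gene, whose reads cannot be told apart from theirs.

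The rule did not address whether the 25°C daytime genes also cycled at 18°C on days 4-5, in libraries that it did not use. With Benjamini-Hochberg adjustment of the harmonic regression F-test over all 7358 genes tested, 13 of the 126 genes passed 0.05, beside 1.78% of all genes. Without adjustment 63 passed, beside 27.4%, and 43 of those also peaked between ZT00 and ZT12, beside 5.3%. After rescaling 58 genes had p under 0.05 and a daytime peak, beside 11.9% of all genes. Without the 2 libraries that stood apart 58 had p under 0.05 (18.3%), of which 37 had a daytime peak (4.53%).

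The 13 genes were CG6126, inaE, CG2277, CrzR, CG32369, Mpi, asRNA:CR44512, Tcs3, CG9896, ABCA, l(2)efl, Pgd and CG9815. The count rested on which libraries were used. Without the ZT20 and ZT06 libraries named above, 6 were called, beside 0.530% of all genes (CG2277, ABCA, inaE, l(2)efl, CG6126 and CG9896). Without replicate 2, 52 were called, but the share over all genes was then 15.02%. With the 5 libraries of replicate 2 alone 0 were called, of the 126 and of all genes (3 of the 126 at unadjusted p under 0.05, beside 2.31%). Those libraries covered only ZT06, ZT12 and ZT18, so that setting had little power to call any gene. With germline, eggshell and gut marker scores as covariates 5 were called (0.598% of all genes), and with the libraries rescaled by median-of-ratios factors 22 (2.47%), of which 10 were among the 13.

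Among afternoon genes, the 18°C peak lay mostly in the second part of the light phase. Of the 33 afternoon genes with p under 0.05 at 18°C, 30 peaked between ZT06 and ZT12, 3 between ZT00 and ZT06, and 0 in the dark. Over all tested genes with p under 0.05, 13.4% peaked between ZT06 and ZT12. Their 18°C peak was earlier in 17 and later in 16, with a median of 0.172 h earlier. With rescaled libraries 44 afternoon genes had p under 0.05, 42 of them with peaks between ZT06 and ZT12 and a median difference of 0.0377 h in the later direction, while the share of all such tested genes with a daytime peak went from 19.3% to 55.4%. Without the 2 libraries that stood apart, 25 of 32 peaked between ZT06 and ZT12, 3 between ZT00 and ZT06, 3 between ZT12 and ZT18 and 1 between ZT18 and ZT24.

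Among morning genes, 18°C peaks were spread around lights on. Of the 30 morning genes with p under 0.05 at 18°C, 20 peaked between ZT18 and ZT24, 7 between ZT00 and ZT06 and 3 between ZT06 and ZT12, and 24 of the 30 peaked earlier than at 25°C, with a median of 3.06 h. These values moved with scaling. With rescaled libraries 23 morning genes had p under 0.05, of which 9 peaked between ZT18 and ZT24, 7 between ZT00 and ZT06 and 7 between ZT06 and ZT12, with a median of 1.13 h earlier and 13 of 23 earlier. Over all tested genes with p under 0.05, peaks between ZT18 and ZT24 made up 77.96% as deposited and 39.3% after rescaling. Without the 2 libraries that stood apart, 17 of 26 morning genes peaked between ZT18 and ZT24, with a median of 3.05 h earlier. The germline marker score at 18°C had its own fitted peak at ZT19.7 (amplitude 0.79 log2 units, harmonic regression p = 0.201), and its part in these peak times was not tested. With marker scores as covariates 16 of 28 morning genes peaked between ZT18 and ZT24. The difference in peak time between temperatures was not tested, since the rule used the 25°C peak.

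**Figure D2:**
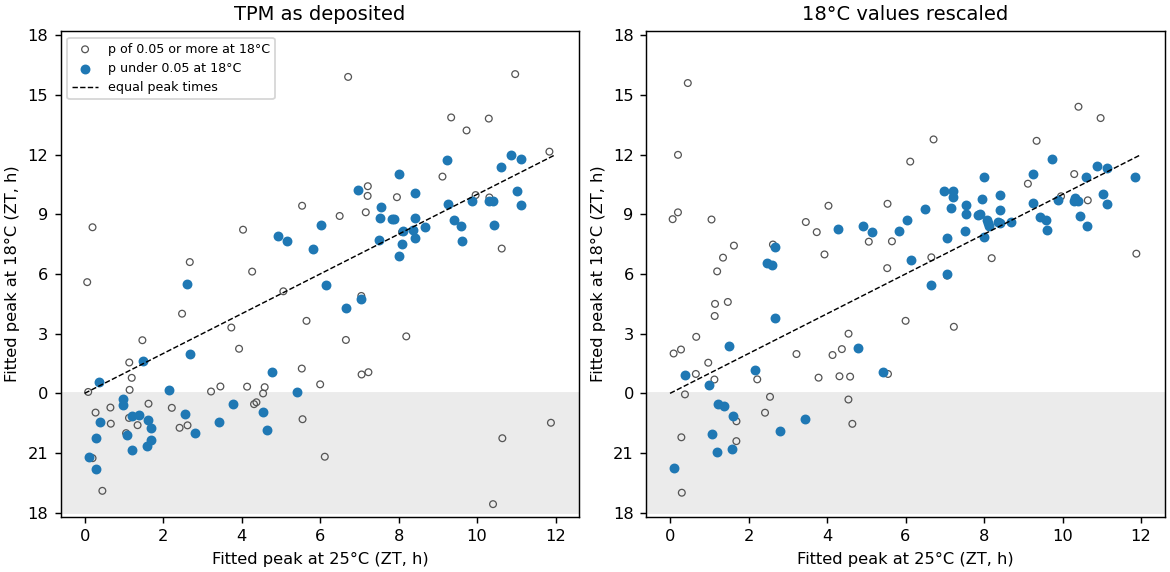
Fitted peak at 25°C (x axis, ZT in h) against fitted peak at 18°C (y axis, ZT in h, with the dark hours ZT18 to ZT24 shaded below 0) for the 126 genes on days 4-5; the left panel uses TPM as deposited and the right panel 18°C libraries rescaled by median-of-ratios factors. Filled points have p under 0.05 at 18°C (63 genes at left, 67 at right), and the filled morning genes in the shaded band number 20 at left and 9 at right.

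The amplitude at 18°C was larger than at 25°C in 37 of the 126 genes. The median amplitude was 0.28 log2 units at 25°C, where large amplitudes favoured selection, 0.21 at 18°C on days 4-5 and 0.15 at 18°C on days 1-2. All tested genes had medians of 0.17 and 0.13 log2 units at 18°C on days 4-5 and days 1-2.

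**Figure D3:**
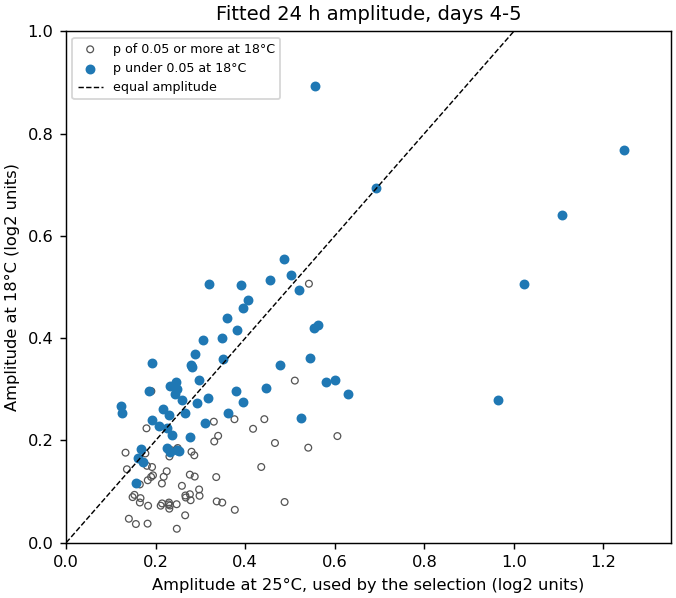
Fitted 24 h amplitude at 25°C (x axis, log2 units) against that at 18°C (y axis, log2 units) on days 4-5, 1 point per gene, filled where p is under 0.05 at 18°C. The dashed line marks equal amplitude, and 37 of 126 genes lie above it; the highest point on the y axis is l(2)efl at 0.89.

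The genes below are grouped by role. These groups were formed after the values were seen and hold 50 of the 126 genes. Mean levels on days 4-5 were compared by limma on log2(TPM + 1) with shared harmonic terms and Benjamini-Hochberg adjustment over all 7358 genes, a measure that the rule did not use beyond its floor on the 25°C level. Of the 126 genes, 47 were higher at 18°C (35.3% of all tested genes were) and 29 were lower (15.5%). The median difference was 0.07 log2 units, beside 0.09 over all tested genes. With rescaled libraries 37 were higher and 36 lower, so that 50.7% of calls were upward in place of 61.8% (all tested genes: 53.8% in place of 69.6%), and 66 of the 76 calls remained. With replicate 2 alone, 11 of the 76 remained, with 4 of 126 genes higher and 7 lower (2.31% and 2.17% of all genes). The counts of higher and lower genes by role and list below stand beside 35.3% and 15.5% of all tested genes. Counts with harmonic regression p under 0.05 at 18°C on days 4-5 stand beside 27.4% of all tested genes (5.3% with a daytime peak). These shares were 21.6% and 11.9% after rescaling, and 18.3% and 4.53% without the 2 libraries that stood apart. On days 1-2 at 18°C 7.07% of all tested genes had p under 0.05.

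**Figure D4:**
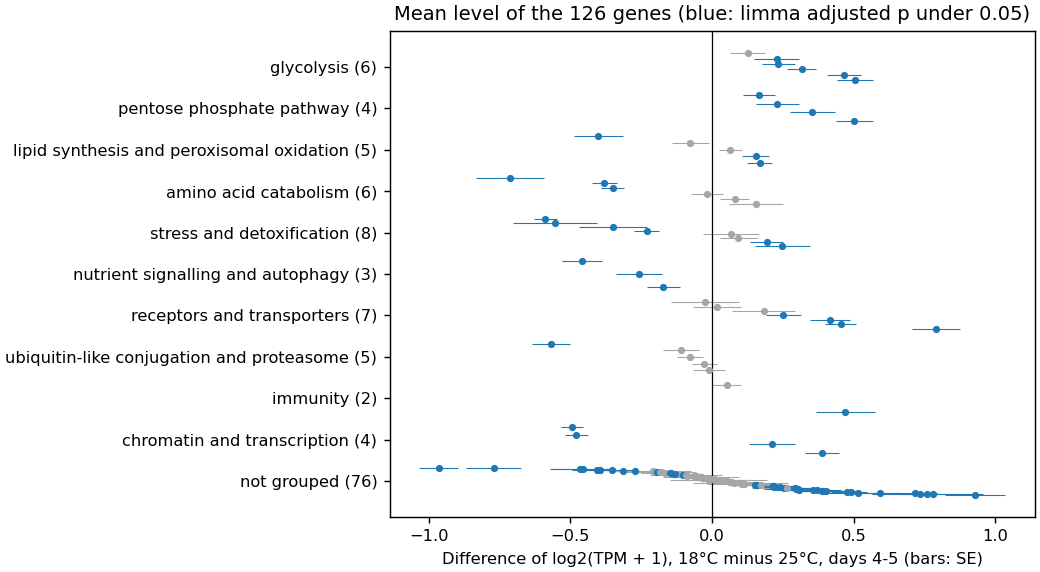
Difference of mean log2(TPM + 1), 18°C minus 25°C on days 4-5, for the 126 genes in rows by role (number of genes in brackets); bars are the standard error from limma and blue points have an adjusted p under 0.05. The 4 pentose phosphate genes all lie to the right of 0 and the 3 nutrient signalling genes all lie to the left.

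The pentose phosphate pathway contributed Pgd, the 6-phosphogluconate dehydrogenase that yields NADPH, CG17333 (6-phosphogluconolactonase), CG8036 (transketolase) and Taldo (transaldolase). At 25°C these 4 afternoon genes peaked from ZT7.83 to ZT9.25, values that the rule used. Rpi and Zw, of the same pathway, also passed the p threshold at 25°C, with peaks at ZT7.09 and ZT7.98, but were left out by name. At 18°C their fitted peaks lay between ZT8.19 and ZT9.54, all 4 with p under 0.05, with and without the libraries that stood apart and after rescaling. All 4 were higher at 18°C.

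Pgd (chromosome X, 2145136-2148566, forward strand) lay between 369 TPM (ZT00) and 803 TPM (ZT06) at 25°C, with a median of 576 TPM. At 18°C it ran from 372 TPM, in the ZT20 library that stood apart, to 890 TPM (ZT06), with a median of 689 TPM. High and low libraries thus fell at like times of day, and the ranges overlapped almost wholly. Its 18°C rhythm had an amplitude of 0.30 ± 0.06 log2 units (SE) and an adjusted p of 0.045 by harmonic regression, which became 0.128 without the 2 libraries and 0.0286 after rescaling. Its mean was 0.16 ± 0.06 log2 units higher at 18°C (SE, limma adjusted p = 0.0132), in 16 of 24 pairs of libraries matched by replicate, day and ZT. Such pairs, here and below, are matched by label only (median correlation of deviations 0.021). Most are successive time points of replicate 1, so pair counts describe direction and are not independent replicates. Pgd shares exon bases with bcn92 on the opposite strand.

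CG8036 (3R, 8667868-8673702) ran from 653 TPM (ZT16) to 1258 TPM (ZT10) at 25°C, with a median of 906 TPM. At 18°C it ran from 813 TPM (ZT18) to 1908 TPM (ZT06), with a median of 1370 TPM. The 18°C median of this gene lay above its highest 25°C library. It was higher by 0.50 ± 0.07 log2 units (SE; limma adjusted p = 1.9e-08), in 23 of 24 pairs. Taldo reached 1742 TPM at ZT06 at 18°C, beside a 25°C maximum of 977 TPM, and was higher by 0.35 ± 0.08 log2 units (limma adjusted p = 0.000255). Taldo and CG17333 lost this direction with replicate 2 alone, at -0.0148 and -0.16 log2 units.

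A further transcript sits beside this pathway. asRNA:CR44512 (chromosome X, 19667018-19667746, reverse strand) shares 369 of its 729 exon bases with Zw, the glucose 6-phosphate dehydrogenase gene on the other strand, and in these non-stranded libraries the sources of those reads cannot be told apart. Its 25°C peak was at ZT8.12 and its 18°C peak at ZT8.14 (harmonic regression adjusted p = 0.0261; 0.0725 without the 2 libraries). Of the 10 tested genes on the pentose phosphate and NADPH list, which holds Zw too, 8 were higher and 1 lower at 18°C. On that list 7 had p under 0.05 at 18°C, all of them with daytime peaks, beside 5.3% of all tested genes.

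Glycolysis contributed 6 enzymes, Pgi, Tpi, Gapdh2, Pgk, Pglym78 and PyK, which convert glucose 6-phosphate to pyruvate. Their 25°C peaks lay between ZT5.83 and ZT8.41 and their 18°C peaks between ZT7.24 and ZT10.4. At 18°C 4 of the 6 had p under 0.05, beside 27.4% of all tested genes, and 6 of 6 after rescaling, beside 21.6%. As deposited 0 passed the adjusted threshold. PyK, pyruvate kinase, passed it after rescaling (harmonic regression adjusted p = 0.0346). On days 1-2 at 18°C, 3 of the 6 had p under 0.05, beside 7.07% of all tested genes.

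The level of 5 of the 6 enzymes was higher at 18°C. PyK (3R, 22367536-22372746) ran from 367 TPM (ZT18) to 664 TPM (ZT08) at 25°C, with a median of 496 TPM. At 18°C it ran from 453 TPM, in the ZT20 library that stood apart, to 877 TPM (ZT06), with a median of 731 TPM. The 18°C median lay above the highest 25°C library. The difference was 0.47 ± 0.06 log2 units (SE; limma adjusted p = 9.7e-09), in 23 of 24 pairs. Pgk, phosphoglycerate kinase, was higher by 0.51 ± 0.06 log2 units, and Tpi, triosephosphate isomerase, missed the threshold at 0.13 ± 0.06 (limma adjusted p = 0.0868). On the sugar and glycogen list, which holds Pgi, Tpi, Gapdh2 and PyK but not Pgk or Pglym78, 16 of 24 tested genes were higher and 0 lower. Muscle, which also uses glycolysis heavily, had a mean marker score of 7.06 at 25°C and 6.74 at 18°C (log2 scale), and its part in these levels was not tested. Mpi, mannose phosphate isomerase, which joins fructose 6-phosphate to mannose metabolism, had the smallest 25°C amplitude of all 126 genes (0.12 log2 units) and an 18°C amplitude of 0.27 ± 0.05 (adjusted p = 0.0252 by harmonic regression; 0.0625 without the 2 libraries), with peaks at ZT4.93 and ZT7.93.

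Lipid metabolism contributed ATPCL, the ATP citrate lyase that supplies cytosolic acetyl-CoA, the fatty acid elongase ELOVL, the desaturase Desat1, the acyl-CoA binding protein Acbp2 and the peroxisomal enzyme Mfe2. All 5 peaked late in the light phase at 25°C, from ZT8.41 to ZT10.6, and between ZT7.65 and ZT11.4 at 18°C, where all 5 had p under 0.05. Without the 2 libraries that stood apart 4 did, and Mfe2 had p = 0.114 in place of 0.0209. None passed the adjusted threshold at 18°C (harmonic regression, adjusted p from 0.0558 to 0.126), and ATPCL, ELOVL and Acbp2 did after rescaling. On levels they divided.

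Desat1 (3R, 12439600-12447616) ran from 2450 TPM (ZT00) to 4209 TPM (ZT10) at 25°C and from 2236 TPM (ZT00) to 4470 TPM (ZT12) at 18°C, with medians of 3208 and 3742 TPM. Lowest and highest libraries fell at like times at both temperatures. Desat1 and Acbp2 were higher at 18°C, by 0.15 ± 0.05 and 0.17 ± 0.04 log2 units (SE; limma adjusted p = 0.00623 and 0.00149). ELOVL was lower by 0.40 ± 0.09 log2 units (limma adjusted p = 0.00017), in 21 of 24 pairs, with medians of 189 TPM at 25°C and 138 TPM at 18°C. ATPCL and Mfe2 missed the threshold. On the fatty acid and triglyceride synthesis list 7 of 15 tested genes were higher and 2 lower. The citrate synthase kdn, which makes the citrate that ATPCL splits, peaked at ZT5.42 at 25°C and ZT0.0660 at 18°C (p = 0.00506, adjusted p = 0.0741 by harmonic regression) and was lower by 0.27 ± 0.07 log2 units at 18°C (limma adjusted p = 0.00123).

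**Figure D5:**
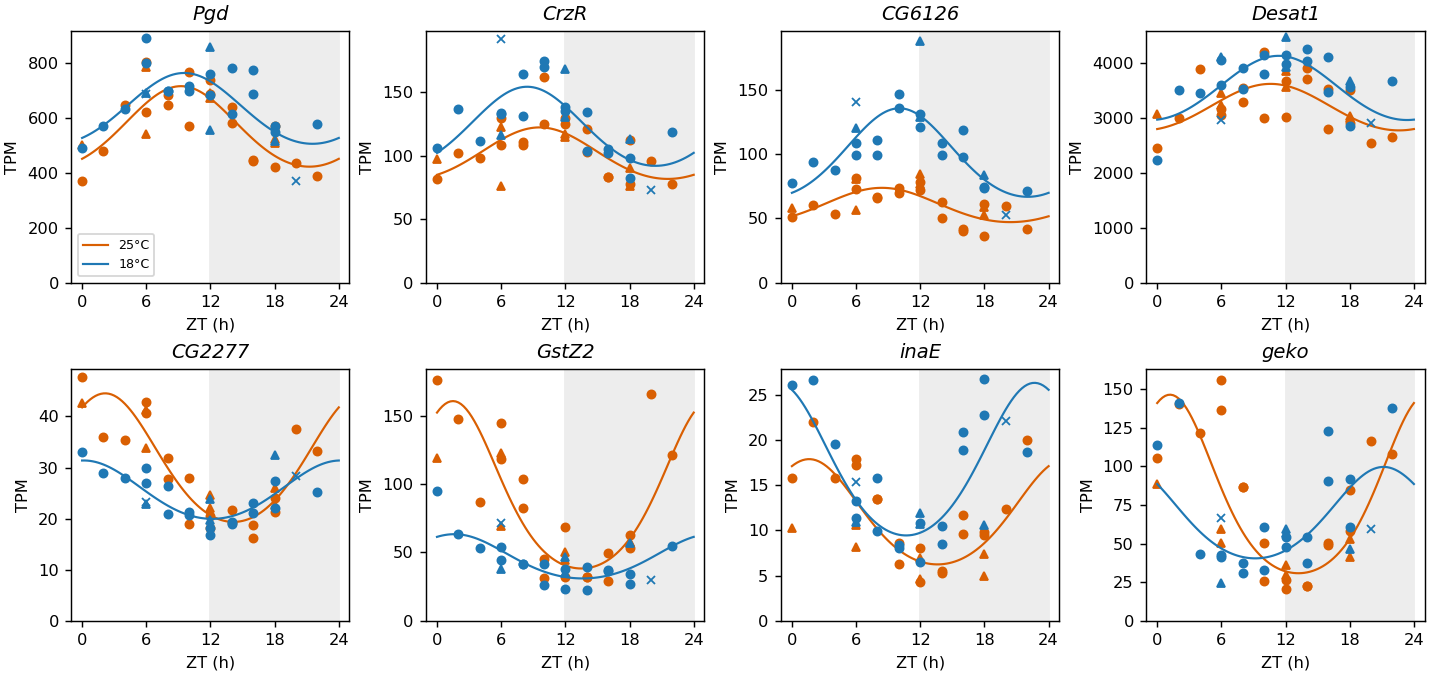
TPM (y axis) against ZT (x axis, h; dark hours shaded) for 8 of the 126 genes on days 4-5 at 25°C (orange, 26 libraries) and 18°C (blue, 24 libraries), with circles for replicate 1, triangles for replicate 2, crosses for the 2 libraries that stood apart and lines for the fitted 24 h curves. Fitted peaks of Pgd, CrzR, CG6126 and Desat1 lie between ZT06 and ZT12 at both temperatures; those of CG2277, GstZ2, inaE and geko lie between ZT00 and ZT06 at 25°C, and at 18°C those of inaE and geko lie in the dark, at ZT22.7 and ZT21.2.

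Amino acid breakdown contributed mostly morning genes. GstZ2, the maleylacetoacetate isomerase of tyrosine breakdown, CG17896 and CG15093, enzymes of valine breakdown, and the kynurenine aminotransferase Kyat peaked between ZT1.49 and ZT4.14 at 25°C. CG17691 and CG5599, which encode subunits of the branched-chain keto acid dehydrogenase, peaked near ZT7. At 18°C on days 4-5 GstZ2 and CG17896 had p under 0.05, both with daytime peaks. Both also had p under 0.05 on days 1-2 at 18°C, with peaks at ZT0.130 and ZT23.7.

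GstZ2 (3R, 9456815-9460652) ran from 29.4 TPM (ZT16) to 176 TPM (ZT00) at 25°C, with a median of 65.8 TPM. At 18°C it ran from 22.7 TPM (ZT14) to 95.1 TPM (ZT00), with a median of 40.4 TPM. Both the lowest and the highest library were lower at 18°C, and the ranges overlapped. The amplitude was 1.02 ± 0.13 log2 units at 25°C and 0.50 ± 0.12 at 18°C (SE), with peaks at ZT1.49 and ZT1.62 (18°C adjusted p = 0.0558 by harmonic regression). Its mean was lower at 18°C by 0.71 ± 0.12 log2 units (limma adjusted p = 2.96e-06). CG17691 and Kyat were also lower, by 0.35 ± 0.04 and 0.38 ± 0.04 log2 units, each in 23 of 24 pairs. On the amino acid list as a whole, 13 of 37 tested genes were higher and 5 lower, beside 35.3% and 15.5% of all tested genes. CG15093 shares 1137 of its 1310 exon bases with asRNA:CR43964.

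Receptors and transporters contributed 7 genes, of which 4 were higher and 0 lower at 18°C. CrzR, the receptor of the peptide hormone corazonin, lies on 3L (12339116-12351544, reverse strand). It ran from 75.7 TPM (ZT18) to 162 TPM (ZT10) at 25°C, with a median of 105 TPM. At 18°C it ran from 72.6 TPM at ZT20 to 192 TPM at ZT06, both in the libraries that stood apart, with a median of 130.5 TPM. Over ZT02 to ZT10 at 18°C the mean was 146 ± 27.0 TPM (SD, n = 10), beside 103 ± 18.4 TPM (SD, n = 9) over ZT14 to ZT22. Its 18°C rhythm had an adjusted p of 0.018 by harmonic regression, 0.0591 without the 2 libraries and 0.00831 after rescaling, with peaks at ZT9.59 at 25°C and ZT8.43 at 18°C.

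The other peptide receptor, PK1-R, the pyrokinin 1 receptor, was much scarcer, with medians of 7.60 TPM at 25°C and 9.05 TPM at 18°C and a highest value of 27.5 TPM in the ZT06 library that stood apart. Its 18°C p was 0.0172 (adjusted p = 0.117 by harmonic regression) and became 0.0553 without the 2 libraries, and its mean did not pass the test. The orphan receptor mthl5 was higher at 18°C in 24 of 24 pairs, by 0.45 ± 0.05 log2 units (limma adjusted p = 1.6e-09). The amino acid transporter sbm peaked at ZT6.97 at 25°C and ZT10.2 at 18°C (adjusted p = 0.0636; 0.021 after rescaling). The choline transporter-like gene Ctl1 had p = 0.00618 on days 1-2 at 18°C and 0.23 on days 4-5.

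Of the ATP-binding cassette transporters, CG9664 ran from 16.2 TPM (ZT22) to 44.1 TPM (ZT08) at 25°C, with a median of 25.7 TPM. At 18°C it ran from 22.3 TPM, in the ZT20 library that stood apart, to 72.8 TPM (ZT06), with a median of 52.8 TPM. The 18°C median lay above the highest 25°C library. It was higher by 0.79 ± 0.09 log2 units (SE; limma adjusted p = 1.02e-10). ABCA (chromosome X, 21292308-21306665) peaked at ZT4.78 at 25°C and ZT1.05 at 18°C. Its 18°C rhythm (amplitude 0.30 ± 0.06 log2 units, adjusted p = 0.0341 by harmonic regression) gave 0.0173 without the 2 libraries and 0.0709 after rescaling, and its mean was 0.42 ± 0.07 log2 units higher. On the ABC transporter list 9 of 24 tested genes were higher and 4 lower, beside 35.3% and 15.5% of all tested genes.

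CG6126 (3R, 16198000-16203083) had the smallest 18°C p of the 126 genes. It ran from 36.6 TPM (ZT18) to 84.8 TPM (ZT12) at 25°C, with a median of 61.0 TPM. At 18°C it ran from 52.9 TPM, in the ZT20 library that stood apart, to 188 TPM (ZT12), with a median of 104 TPM. The highest library fell at ZT12 at both temperatures, and the 18°C median lay above the highest 25°C library. Its 18°C amplitude was 0.51 ± 0.07 log2 units (SE) with an adjusted p of 0.0022 by harmonic regression, 0.00734 without the 2 libraries and 0.0012 after rescaling. Its 18°C peak was at ZT10.05, and its mean was 0.74 ± 0.07 log2 units higher (limma adjusted p = 2.85e-12).

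Morning genes with an 18°C call included inaE, a diacylglycerol lipase, and CG2277. inaE (chromosome X, 13783714-13811493) ran from 4.32 TPM (ZT12) to 22 TPM (ZT02) at 25°C and from 6.49 TPM (ZT12) to 26.7 TPM (ZT18) at 18°C, with medians of 9.70 and 12.6 TPM. Its lowest library fell at ZT12 at both temperatures, while the replicate 1 values at 18°C were already high at ZT16. The fitted peak was at ZT1.61 at 25°C and ZT22.7 at 18°C, and at ZT22.8 after rescaling. Its 18°C adjusted p was 0.00818 by harmonic regression and 0.0223 without the 2 libraries, and its mean was 0.52 ± 0.12 log2 units higher (limma adjusted p = 0.000275).

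CG2277 (3L, 1304850-1307418) had the smallest standard error of peak time at 25°C, 0.357 h. It ran from 16.2 TPM (ZT16) to 47.7 TPM (ZT00) at 25°C, with a median of 26.9 TPM, and from 16.7 TPM (ZT12) to 33.1 TPM (ZT00) at 18°C, with a median of 23.2 TPM. Troughs were alike, and the 18°C crest was lower. The 18°C amplitude was 0.31 ± 0.05 log2 units, beside 0.58 ± 0.06 at 25°C (SE), with an adjusted p of 0.0121 by harmonic regression, 0.0284 without the 2 libraries and 0.0701 after rescaling. It also had the smallest p on days 1-2 at 18°C (4.32e-05, adjusted p = 0.106), with a peak at ZT0.613.

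ABCA and Mpi, described above, were morning genes called at 18°C with daytime peaks there, and 3 others peaked at night. CG32369, Tcs3, a factor of tRNA modification, and CG9896 peaked between ZT1.08 and ZT1.59 at 25°C and at ZT21.3, ZT21.9 and ZT22.9 at 18°C, and rescaled values gave ZT21.2, ZT21.97 and ZT23.4. Without the 2 libraries that stood apart their adjusted p was 0.0511, 0.0969 and 0.0284 (harmonic regression). geko had peaks at ZT1.20 and ZT21.2 and an 18°C adjusted p of 0.0636 by harmonic regression. Its 18°C values ran from 24.7 TPM (ZT06) to 141 TPM (ZT02), with a median of 55.5 TPM that was close to the 25°C median of 55.6 TPM.

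Stress and detoxification contributed 8 genes, 2 higher and 4 lower at 18°C. l(2)efl, a small heat shock protein, had the largest 18°C amplitude of the 126 genes, 0.89 ± 0.19 log2 units (SE), beside 0.56 ± 0.11 at 25°C. It ran from 152 TPM (ZT22) to 549 TPM (ZT12) at 25°C, with a median of 317 TPM. At 18°C it ran from 70.1 TPM at ZT20 to 725 TPM at ZT06, both in the libraries that stood apart, with a median of 216 TPM. Its 18°C adjusted p was 0.0368 by harmonic regression and 0.00734 without those 2 libraries, with a peak at ZT11.0. It was lower at 18°C by 0.55 ± 0.15 log2 units (limma adjusted p = 0.00163), with the opposite sign (0.072) in replicate 2 alone.

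The oxidative stress genes Keap1 and maf-S were called in opposite directions. Keap1, the inhibitor of the stress factor CncC, peaked at ZT10.9 at 25°C and ZT11.96 at 18°C (p = 0.0011, adjusted p = 0.0533 by harmonic regression; 0.0115 after rescaling) and was higher by 0.19 ± 0.06 log2 units (limma adjusted p = 0.0056). maf-S, the small Maf partner of CncC, ran from 144 TPM (ZT08) to 214 TPM (ZT06) at 25°C, with a median of 177 TPM, and from 89.6 TPM (ZT10) to 144 TPM (ZT06) at 18°C, with a median of 119 TPM. The ranges met at about 144 TPM. maf-S was lower in 24 of 24 pairs, by 0.59 ± 0.04 log2 units (limma adjusted p = 7.72e-17). SelR, a methionine sulfoxide reductase, and the carboxylesterase Est-6 were also lower. Fmo-2, a flavin monooxygenase, was higher by 0.25 ± 0.10 log2 units. The microsomal glutathione transferase Mgstl (25°C median 1445 TPM) had an 18°C p of 0.162 and its mean did not pass the test.

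Nutrient signalling contributed Thor, the 4E-BP translation inhibitor downstream of insulin and TOR, the autophagy kinase Atg1 and alc, the beta subunit of AMPK, and all 3 were lower at 18°C. Thor (2L, 3478434-3479612) ran from 649 TPM (ZT16) to 1287 TPM (ZT12) at 25°C and from 497 TPM (ZT18) to 1223 TPM (ZT22) at 18°C, with medians of 915 and 767 TPM. The 18°C rhythm did not pass (p = 0.759), and the difference in level was 0.26 ± 0.08 log2 units (SE; limma adjusted p = 0.00702). Atg1 ran from 17.9 TPM (ZT12) to 45.9 TPM (ZT22) at 25°C and from 12.02 TPM (ZT12) to 29.9 TPM (ZT18) at 18°C. It was lowest at ZT12 and highest in the dark at both temperatures, with fitted peaks at ZT0.110 and ZT20.8 (18°C p = 0.00346, adjusted p = 0.0669 by harmonic regression). It was lower by 0.46 ± 0.07 log2 units (limma adjusted p = 6.79e-07). On the insulin, TOR and nutrient sensing list 10 of 29 tested genes were higher and 7 lower, beside 35.3% and 15.5%.

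Chromatin genes were all morning genes. His4r, the replication-independent histone H4 gene, ran from 936 TPM (ZT18) to 1368 TPM (ZT06) at 25°C, with a median of 1108 TPM, and from 679 TPM (ZT10) to 1035 TPM (ZT12) at 18°C, with a median of 802 TPM. It was lower in 24 of 24 pairs, by 0.49 ± 0.04 log2 units (limma adjusted p = 9.08e-15), with an 18°C rhythm p of 0.588. Nurf-38, the inorganic pyrophosphatase of the NURF remodelling complex, was lower by 0.48 ± 0.04 log2 units in 23 of 24 pairs. Pep, a protein of ecdysone-induced puffs, was higher in 24 of 24 pairs, by 0.39 ± 0.06 log2 units, and the cyclin CycH was higher by 0.21 ± 0.08.

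Protein modification contributed Uba3, Uba4 and Ufc1, the activating and conjugating enzymes of ubiquitin-like proteins, the ubiquitin ligase Trc8 and the proteasome subunit Prosalpha6. Uba3 alone had p under 0.05 at 18°C as deposited (0.00217, adjusted p = 0.061 by harmonic regression), and only Uba4 passed the test on levels, lower by 0.57 ± 0.07 log2 units (limma adjusted p = 1.1e-09). Of the immunity genes, the peptidoglycan recognition protein PGRP-LF, an inhibitor of the Imd pathway that shares exon bases with UGP, was higher by 0.47 ± 0.10 log2 units (limma adjusted p = 0.000192), and the Toll pathway protease modSP missed the threshold. On the innate immunity list 14 of 28 tested genes were higher and 0 lower.

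The remaining 76 genes included 47 morning genes. Of these 76, 34 had p under 0.05 at 18°C (27.4% of all tested genes did). Of the 34, 20 had daytime peaks and 14 had peaks between ZT18 and ZT24. There were 35 after rescaling (21.6%), 28 of them with daytime peaks, and 30 without the 2 libraries (18.3%). In level, 27 were higher and 15 lower at 18°C, beside 35.3% and 15.5% of all tested genes. The largest differences of all 126 genes were among them. CG5793 was higher in 24 of 24 pairs by 0.93 ± 0.11 log2 units, with 33.2 to 94.9 TPM at 25°C and 61.9 to 229 TPM at 18°C. mlt, related to the tubulin cofactor TBCE, was lower in 24 of 24 pairs by 0.97 ± 0.07 log2 units, with 67.7 to 116 TPM at 25°C and 28.0 to 66.8 TPM at 18°C, so that its groups did not overlap. CG31189, CG17127 and Gip were higher by 0.78, 0.76 and 0.72 log2 units, and CG11437 was lower by 0.77 (all with limma adjusted p under 0.05). CG17127, with the largest 25°C amplitude, was a scarce transcript that was at 0 TPM in its lowest 25°C library and 26.7 TPM in its highest.

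CG11409 had groups of day and night libraries that were apart at 25°C, in libraries that the rule used to choose it. That gap was thus favoured by the selection, and the share of all tested genes with such a gap is not given here. The gene (chromosome X, 1329518-1341587) lay at 5.73 to 13.2 TPM in the 10 libraries from ZT02 to ZT10 at 25°C and at 1.32 to 4.80 TPM in the 10 from ZT14 to ZT22, without overlap. At 18°C the same spans were 5.39 to 11.6 TPM and 3.42 to 9.19 TPM and overlapped. The amplitude was 0.96 ± 0.10 log2 units at 25°C, as selected, and 0.28 ± 0.09 at 18°C (SE), where the p was 0.02 (adjusted p = 0.124 by harmonic regression).

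The first days after the shift gave further libraries that the rule did not use. At 18°C on days 1-2, with 18 libraries and no replicates, 0 of the 126 genes passed the adjusted threshold of the harmonic regression (0.0136% of all tested genes did), and 32 passed p under 0.05 without adjustment (7.07%), 23 of them with a daytime peak (4.44%). The paper states that sampling started immediately after the shift, so the ZT00 library of day 1 had little time at 18°C. Without that library 23 passed (6.12%), 16 of them with a daytime peak (3.67%). Without the ZT00 library of day 2, whose correlation to its group was also under 0.92, the counts were 31 (7.09%) and 23 (4.43%). After rescaling 13 daytime peaks were left (4.00%). The 16 morning genes among the 32 peaked between ZT00 and ZT06 in 10, ZT06 and ZT12 in 1 and ZT18 and ZT24 in 5. The 16 afternoon genes peaked between ZT06 and ZT12 in 10, ZT12 and ZT18 in 4 and ZT00 and ZT06 in 2. Among those with p under 0.05 were CG2277, GstZ2 (0.00107, peak ZT0.130), CG8036 (0.00606, peak ZT11.4) and Desat1 (0.00902, peak ZT12.6). The highest GstZ2 value, 119 TPM, was in the ZT00 library of day 1, which had little time at 18°C.

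At 25°C on days 1-2 there was 1 library per time point and no test. The ZT06 library exceeded the ZT18 library of day 1 by over 0.25 log2 units in 38 of the 126 genes (8.64% of all tested genes), and the reverse held in 26 (31.6%). The median difference was 0.10 log2 units, beside -0.14 over all tested genes. Taldo, for example, measured 815, 1033, 741 and 803 TPM at ZT00, ZT06, ZT12 and ZT18 of day 1 and 833 TPM at ZT00 of day 2. CG2277 measured 38.4, 40.9, 18.5, 27.2 and 36.8 TPM at the same times. CrzR did not follow its later pattern, with 69.5, 75.4, 84.0, 91.0 and 102 TPM. The eggshell marker score of these 5 libraries averaged 4.29, beside 1.503 on days 4-5 at 25°C (log2 scale), and its part in these values was not tested.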

How the data were processed

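The labels and the study's methods describe non-stranded, paired-end RNA-seq of polyadenylated RNA. The authors trimmed reads, used STAR 2.7.10a for alignment and RSEM for abundances on BDGP6, and the deposited table holds TPM per gene for 73 libraries, with 0 columns left unmapped. The methods mention removal of duplicate reads, and the labels do not say which version the table holds. All columns have the same sum, so TPM keeps no depth: the precision of a value rests on the number of libraries, and a transcript that takes a larger share lowers all others.

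TPM were transformed as log2(TPM + 1), a scale that understates changes of scarce genes. Rhythms were fitted with cosine and sine terms of 24 h (numpy 2.4.6, scipy 1.17.1) and tested by an F-test, and mean levels were compared with limma 3.58.1 in R 4.3.3, both with Benjamini-Hochberg adjustment over the 7358 genes with a median above 5 TPM at either temperature on days 4-5. Standard errors of peak times came from the delta method. Both scripts were tested on simulated data. Gene positions are those of Ensembl BDGP6.54, which annotates the same assembly. Groups came from the labels.

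The members and gene lists were chosen with earlier results of these data known. Genes were named by rank (smallest p at each temperature, largest mean differences), by list membership and by neighbourhood. Others named by role, and the 8 genes plotted over time, were chosen after their values were seen. Alternatives covered the pseudocount, the filter, rescaling, marker covariates, the selection threshold, the limma settings, replicates, blocks and the ZT00 library of day 1. They also covered 2 to 3 libraries that stood apart, which were chosen after seeing the data. No counts were used, and sequences were not used here.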

Additional observations from a re-analysis of the deposited data

How the results depend on the processing

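On days 4-5 at 18°C, 13 genes had an adjusted p under 0.05 (1.78% of all genes). The count became 5 without a filter on low values (0.248%) and 22 with rescaled libraries (2.47%). It became 5 with marker scores (0.598%) and 6 without the libraries that stood apart (0.530%). Leaving out replicate 1 or 2 gave 0 or 52 (0 or 15.02%). Without replicate 1 there were 5 libraries at 18°C, at ZT06, ZT12 and ZT18 only, which left little power to call any rhythm. At unadjusted p under 0.05, the 63 genes became 121 of 275 and 38 of 64 with selection at p below 0.01 or 0.0005. The share of all genes stayed at 27.4%. Without replicate 1 or 2 the 63 became 3 or 72 (2.31% or 41.8% of all genes). The 43 with daytime peaks became 74 and 26 in these selections (5.3% of all genes). They became 2 or 48 without replicate 1 or 2 (1.07% or 7.87%). On days 1-2 the 32 genes became 21 with marker scores (6.37% of all genes) and 50 of 275 at the looser selection (7.07%). Without the ZT00 library of day 1 they became 23 (6.12%). The 23 daytime peaks became 13 after rescaling (4.00%) and 16 without that library (3.67%). The mean level comparison (47 higher, 29 lower) gave 97 and 65 of 275 at the looser and 26 and 17 of 64 at the stricter selection. The shares of all genes stayed at 35.3% higher and 15.5% lower. Without replicate 1, 4 were higher and 7 lower (2.31% and 2.17% of all genes). Without replicate 2, 45 were higher and 31 lower (34.2% and 16.9%). At 25°C on days 1-2, 72 genes in place of 38 had ZT06 above ZT18 when any difference counted (2052 of all 7358 tested genes did). The reverse held in 52 genes (5296 of all 7358 tested genes).

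Replicate numbers did not pair libraries: deviations of 24 same-numbered pairs correlated between -0.459 and 0.541 (median 0.021), and 6 exceeded 0.1. With the replicate block 27 genes were called at 18°C (3.64% of all genes). In mean level it gave 47 higher and 29 lower (35.5% and 16.3%). The matched pair block gave 44 and 28 (32.5% and 15.4%). Leaving out replicate 1 or 2 gave mean differences of -0.0148 and 0.46 for Taldo, -0.16 and 0.35 for CG17333, -0.00199 and 0.30 for Pglym78 and 0.072 and -0.685 for l(2)efl, so that replicate 2 alone changed the sign. Among 77 named mean differences, sign changes were counted only where the limma adjusted p was under 0.05 in the main or the altered setting. No others met this under the settings run. The causes were not tested. Pseudocounts of 0.1 and 5 left the count of rhythm calls within 1.5 times. TPM hold no depth, so the counting error, which is largest for scarce genes, could not be estimated.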
